A study of Homo sapiens with 20 samples.

Results

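The genes described here were TAGLN and 9 relatives in function that encode actin-binding and contractile proteins, TAGLN2, CNN1, CNN2, MYL9, TPM1, TPM2, TPM4, CALD1 and ACTN1, 10 of the 57500 genes counted in each library. RNA was sequenced from 20 cultures of NTERT cells, human keratinocytes immortalized with hTERT, in 4 groups of 5, with WT and GCN2KO cells each kept unwounded or given HDW. The WT cells carried a control guide RNA, and the GCN2KO cells were a CRISPR/Cas9-edited pool rather than a clone, early in passage, in which the gene for the stress-activated eIF2 kinase GCN2 (EIF2AK4) was targeted. All 4 groups were confluent monolayers grown with calcium and serum so that they differentiated, and in HDW, high-density wounding, the monolayer was scratched many times in perpendicular directions before harvest 6 h later. The set was chosen by measured values of these libraries: TAGLN was selected on its rise in WT cells after HDW. Its values are therefore a description with no test, and tests are given for the other members.

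TAGLN (transgelin, SM22-alpha) is a calponin-family protein that binds and bundles actin filaments and is best known as an early marker of smooth muscle. The other members act on the same filaments: calponins, tropomyosins and caldesmon lie along or beside them and tune myosin's access, MYL9 is a regulatory light chain of non-muscle and smooth muscle myosin II, and ACTN1 crosslinks filaments in stress fibers and at adhesions. Many such genes are driven by serum response factor (SRF), which binds a DNA element called the CArG box together with the coactivators MRTFA and MRTFB. These coactivators are held in the cytoplasm by actin monomers and released when monomers are built into filaments.

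RefSeq promoter windows (GRCh38.p14, 250 bases before to 50 bases after each annotated start) were matched for 8 of the 10 members, all but TAGLN and MYL9, with 19 windows in all because several genes have more than 1 start. A CArG box, a pattern that is the same on both strands, was found in 3 of the 19 windows, 1 each of TPM4, CNN2 and ACTN1, and in 1.29% of the 35116 windows of all genes. The letters CATTCC, the core bound by TEAD factors, stood on either strand in 3 of the 19 windows, 2 of CALD1 and 1 of ACTN1, and in 14.0% of all windows. The windows with a CArG box are shown because their genes responded differently to wounding, and a window of TPM1 is shown as one without the box; capitals mark the CArG box.
TPM4, chr19:16067288-16067587, plus strand, 1 of 3 windows: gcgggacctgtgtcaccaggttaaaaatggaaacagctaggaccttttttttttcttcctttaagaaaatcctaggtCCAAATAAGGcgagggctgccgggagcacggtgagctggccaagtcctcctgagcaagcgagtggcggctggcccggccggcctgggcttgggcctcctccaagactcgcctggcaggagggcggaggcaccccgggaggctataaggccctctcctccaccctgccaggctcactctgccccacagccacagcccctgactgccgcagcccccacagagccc
CNN2, chr19:1026358-1026657, plus strand: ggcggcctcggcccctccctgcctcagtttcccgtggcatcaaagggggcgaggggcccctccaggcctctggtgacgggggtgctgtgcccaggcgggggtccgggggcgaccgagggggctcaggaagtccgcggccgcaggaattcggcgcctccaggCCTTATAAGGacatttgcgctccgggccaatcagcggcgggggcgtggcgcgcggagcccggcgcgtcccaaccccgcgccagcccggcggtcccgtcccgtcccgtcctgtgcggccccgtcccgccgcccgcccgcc
ACTN1, chr14:68977517-68977816, minus strand, 1 of 4 windows: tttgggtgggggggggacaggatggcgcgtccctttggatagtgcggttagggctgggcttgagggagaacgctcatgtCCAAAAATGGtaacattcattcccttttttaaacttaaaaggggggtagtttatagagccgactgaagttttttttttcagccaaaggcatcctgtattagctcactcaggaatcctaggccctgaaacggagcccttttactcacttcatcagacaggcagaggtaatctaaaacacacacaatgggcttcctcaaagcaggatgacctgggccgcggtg
TPM1, chr15:63048239-63048538, plus strand: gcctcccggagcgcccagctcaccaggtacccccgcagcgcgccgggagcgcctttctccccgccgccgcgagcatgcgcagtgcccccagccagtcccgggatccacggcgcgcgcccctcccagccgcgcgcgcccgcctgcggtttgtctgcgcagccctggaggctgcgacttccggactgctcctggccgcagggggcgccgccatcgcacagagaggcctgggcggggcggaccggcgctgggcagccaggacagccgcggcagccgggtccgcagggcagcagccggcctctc
The box began 173 bases before the annotated start in TPM4 (CCAAATAAGG), 89 bases before it in CNN2 (CCTTATAAGG) and 171 bases before it in ACTN1 (CCAAAAATGG). A match of letters is a description of the window. The gene-level counts do not show which start was used.

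The libraries held 14083504 to 34611570 counts, with the WT unwounded group shallower (median 23685751) than the other groups (medians 33981257 to 34209033). Values below are read counts normalized for library size and composition with TMM factors. EIF2AK4, the targeted gene, had a mean of 4206 ± 144 (SD, n = 5) normalized counts in WT unwounded and 863 ± 60 in GCN2KO unwounded cells, so transcripts were still counted in the edited pool, and no GCN2KO library overlapped a WT library. All 11 keratinocyte markers were counted in every group, led by KRT5. In unwounded cells 3 were higher and 6 lower in GCN2KO than in WT, against 33.4% and 33.1% of all genes. Of these 3 were DE genes, against 16.4% of all genes. After HDW 3 were higher and 7 lower, against 35.9% and 35.8%, and 2 were DE genes, against 14.9%. IVL, a marker of differentiation, had means of 3019 and 4311 in WT and 10692 and 16753 in GCN2KO cells. COL17A1, a basal hemidesmosome collagen, had 80094 and 84226 in WT and 31212 and 35469 in GCN2KO cells. Other markers of both kinds did not all go these ways. KRT5, a basal keratin, had 225760 and 263440 in WT and 317890 and 376410 in GCN2KO cells, while KRT14 was lower in GCN2KO. KRT1, a keratin of differentiation, had 21.7 and 19.5 in WT and 10.8 and 10.9 in GCN2KO cells, while KRT10 was higher in GCN2KO. The part of these markers in the differences between genotypes was not tested. Of 7 smooth muscle markers, MYOCD was at 0 in all 20 libraries, DES never passed 1 count, and 4 stayed under 10 counts in every library. Their summed level was mostly ACTA2. It ranged from 555 to 632 in WT unwounded and from 344 to 421 in WT HDW libraries. Among GCN2KO libraries it was 689 to 823 without a wound and 645 to 738 with one. The sum, led by ACTA2, was thus lowest where TAGLN was highest. ACTG2, never above 5 counts, went the other way. Its means without and with HDW were 0 and 3.91 in WT and 0.163 and 0.162 in GCN2KO cells. Of 9 fibroblast markers, COL3A1 never passed 2 counts and COL1A2 never passed 5, and the summed level ranged from 2902 to 3768, 2390 to 3229, 2132 to 2453 and 2259 to 2469 in the same order, mostly COL1A1 and FAP.

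Levels differed widely among the members. In RPKM, here the counts per kilobase of the canonical transcript (GENCODE 44) scaled by library size, TAGLN2, the widely expressed paralog of TAGLN, stood at 330 ± 11 (SD, n = 5) in WT unwounded cells, followed by TPM1 (225 ± 13), TPM4 (214 ± 8.2), CNN2 (188 ± 4.8), ACTN1 (101 ± 4.2), CALD1 (64.9 ± 3.3) and TPM2 (54.1 ± 4.2). MYL9 (1.74 ± 0.25) and TAGLN (0.588 ± 0.14) were far lower on this scale. Among neighbours in that order only TPM1 and TPM4 overlapped between libraries. The counts cover all exons of a gene but are divided by 1 transcript length, so the order depends on that choice. In normalized counts, not corrected for length, TPM1 (mean 7604) was below TPM4 (14735), CNN2 (11200), ACTN1 (10439) and CALD1 (9031) in WT unwounded cells. After HDW in WT cells TPM4 led at 432 ± 56, overlapping TAGLN2 at 331 ± 15, while MYL9 (8.30 ± 1.4) and TAGLN (7.25 ± 1.4) overlapped each other and remained the lowest of the 9. In GCN2KO unwounded cells the order was TAGLN2 (302 ± 26), TPM4 (253 ± 13), CNN2 (167 ± 15), TPM1 (81.3 ± 4.9), ACTN1 (72.5 ± 9.2), TPM2 (38.0 ± 1.4), CALD1 (34.7 ± 3.1), MYL9 (2.68 ± 0.57) and TAGLN (1.24 ± 0.22), with TPM1 overlapping ACTN1 and TPM2 overlapping CALD1. In GCN2KO HDW cells TPM4 (324 ± 22) overlapped TAGLN2 (295 ± 10), followed by CNN2 (169 ± 2.9), ACTN1 (93.4 ± 2.7), TPM1 (83.2 ± 3.2), CALD1 (45.4 ± 1.5), TPM2 (41.5 ± 2.0), MYL9 (3.45 ± 0.66) and TAGLN (1.89 ± 0.27), none of which overlapped its neighbour. CNN1, the smooth muscle calponin, had 0 counts in 18 libraries and 1 count in the other 2, against a limit of 3 counts that an empty library allows (0.0867 to 0.213 CPM). It was below the filter on low counts in every comparison, and the 9 other members passed that filter, each with counts in all 20 libraries.

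**Figure D1:**
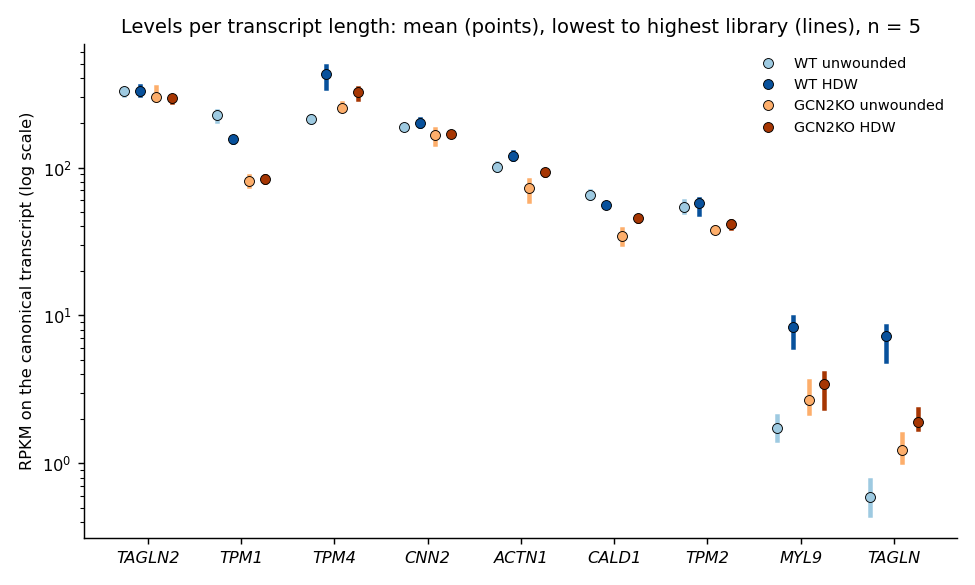
RPKM on the canonical transcript (log axis) for 9 members, with points for group means and lines from the lowest to the highest of 5 libraries; CNN1 is left out at 0 to 1 counts. TAGLN and MYL9 lie well below the other genes in every group, at 0.588 and 1.74 in WT unwounded cells and 7.25 and 8.30 in WT HDW cells.

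TAGLN had 80.6, 55.1, 74.6, 46.7 and 52.1 normalized counts in the 5 WT unwounded libraries and 807, 521, 729, 894 and 859 in the 5 WT HDW libraries. Every WT HDW library was above every library of the other 3 groups. In GCN2KO cells TAGLN had 122, 115, 166, 140 and 107 normalized counts unwounded and 203, 246, 180, 184 and 180 after HDW, so it was also higher after HDW in every library, by a much smaller amount. The means were 61.8 ± 15 and 762 ± 149 in WT and 130 ± 24 and 199 ± 28 in GCN2KO cells (SD, n = 5), ratios of 12.3 and 1.53. As a description, the log2 fold change was 3.67 ± 0.17 (SE) with HDW in WT, 0.62 ± 0.13 with HDW in GCN2KO, 1.12 ± 0.17 for GCN2KO over WT without wounds and -1.93 ± 0.14 for GCN2KO over WT after HDW. Of the exonic bases of TAGLN, 34.1% are shared with PCSK7 on the opposite strand and 38.1% with the unnamed gene ENSG00000280143 on the same strand, and the strand setting of the counting is not given in the sources used here. PCSK7, a proprotein convertase gene, had means of 685 and 744 in WT and 467 and 591 in GCN2KO cells. ENSG00000280143 had means of 7.64 and 17.3 in WT and 9.84 and 11.4 in GCN2KO cells. Their part in the TAGLN counts was not tested.

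**Figure D2:**
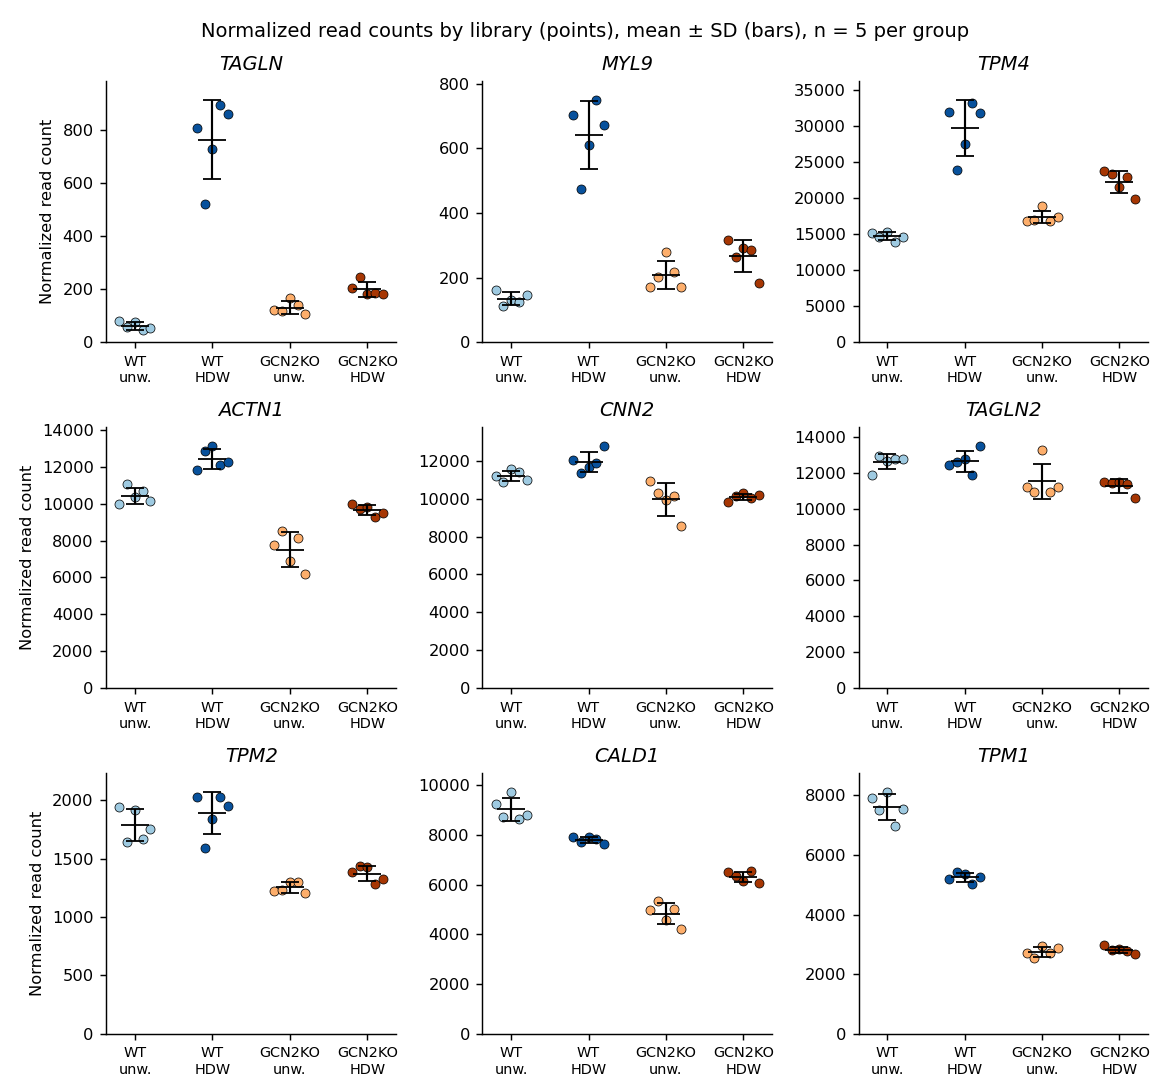
Normalized read counts (linear axes from 0) of 9 members in the 5 libraries of each group, with mean and SD; unw. means unwounded, and CNN1 is left out at 0 to 1 counts. TAGLN and MYL9 share a shape with the WT HDW libraries far above all others, TPM4 shows it in a milder form, and CALD1 and TPM1 are highest in WT unwounded cells.

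The first comparison asked how these genes responded to HDW in WT cells. MYL9 and TPM4 rose with TAGLN, ACTN1 and CNN2 rose by small amounts, TPM1 and CALD1 fell, and TAGLN2 and TPM2 did not pass the test. Of the 8 members tested, 4 rose, against 26.1% of the 15348 genes tested, and 2 fell, against 25.2% (edgeR's quasi-likelihood test, adjusted p of at most 0.05 by Benjamini-Hochberg over all genes tested). MYL9 and TPM4 also counted as DE genes, for which the log2 fold change must reach 1 in either direction, against 4.17% of genes. The median log2 fold change of the 8 was 0.08, beside 0.00 over all genes tested (-0.0024). In bulk RNA, fewer cells that express a gene and less RNA per cell cannot be told apart.

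MYL9 had 161, 112, 129, 124 and 146 normalized counts in WT unwounded libraries and 703, 475, 611, 749 and 672 in WT HDW libraries. The groups did not overlap, and the lowest WT HDW library was the same one, replicate 2, as for TAGLN. The fold change was 4.78, a log2 fold change of 2.26 ± 0.12 (SE, adjusted p = 1.57e-09). MYL9 shares its role with the more abundant light chains MYL12A and MYL12B, named here after their values were seen. MYL12A had means of 5299 and 5645 (log2 fold change 0.09, adjusted p = 0.0605) and MYL12B had means of 10691 and 10997 (log2 fold change 0.04, adjusted p = 0.452). In read counts not corrected for length, MYL9 thus stood at 2.54% ± 0.38 of MYL12A before HDW and 11.3% ± 1.6 after it.

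The tropomyosins form rods that polymerise along actin filaments, and they went different ways. TPM4, a non-muscle form linked to stress fibers, had 15207, 14633, 15294, 13890 and 14651 normalized counts before HDW and 31907, 23873, 27521, 33162 and 31831 after it in WT cells. The groups did not overlap, the fold change was 2.01, and the log2 fold change was 1.01 ± 0.07 (adjusted p = 2.63e-08), just past the size that defines a DE gene. It fell under that size, to 0.96 at the lowest, without replicate 4 of WT unwounded or replicate 1, 4 or 5 of WT HDW. TPM1 had 7903, 7518, 8111, 6958 and 7533 normalized counts before HDW and 5180, 5427, 5349, 5013 and 5268 after it. Every library was lower after HDW, and the log2 fold change was -0.54 ± 0.04 (adjusted p = 5.80e-08). TPM2 ranged from 1647 to 1948 before and from 1596 to 2034 after HDW, with overlapping groups and a log2 fold change of 0.08 ± 0.07 (adjusted p = 0.337). Without replicate 2 of WT HDW it was 0.13 (adjusted p = 0.0385). The tropomyosin genes, TPM4 among them, CALD1 and ACTN1 each encode several isoforms, and these counts add them up.

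CALD1, which encodes caldesmon, an inhibitor of myosin on actin filaments, ranged from 8656 to 9726 normalized counts before HDW and from 7653 to 7904 after it. Its groups did not overlap, and it fell by 0.21 ± 0.04 on the log2 scale (adjusted p = 1.66e-04). ACTN1 ranged from 9971 to 11049 before and from 11856 to 13123 after HDW, a log2 fold change of 0.25 ± 0.04 with no overlap (adjusted p = 6.65e-05). CNN2, the non-muscle calponin, overlapped between groups (10876 to 11554 and 11361 to 12772), and its log2 fold change of 0.09 ± 0.04 (adjusted p = 0.044) missed the threshold in 12 of 17 alternatives. TAGLN2 ranged from 11881 to 12934 before and from 11898 to 13486 after HDW (log2 fold change 0.00, adjusted p = 0.976). The 3 genes with a CArG box in the window shown above thus had log2 fold changes of 1.01 (TPM4), 0.25 (ACTN1) and 0.09 (CNN2).

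Within the WT HDW group, replicate 2 had the lowest value of 5 of the 9 expressed members, TAGLN, MYL9, TPM2, TPM4 and CNN2, and the highest value of TPM1. In the GCN2KO groups replicate 5 held the lowest value for 5 of the 9 members, both without a wound and after HDW, and replicate 4 of WT unwounded did so for 4 of the 9. ACTB was also lowest in replicate 2 of WT HDW, at 82827 normalized counts beside 95208 to 106880 in the other 4. Leaving out replicate 2 of WT HDW gave log2 fold changes with HDW in WT of 3.78 for TAGLN, 2.35 for MYL9 and 1.07 for TPM4.

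The same comparison in GCN2KO cells gave smaller changes for MYL9, TPM4 and TPM1. For ACTN1 and CALD1 the changes were larger than in WT, and for CALD1 opposite in direction. TPM4, CALD1 and ACTN1 rose and no member fell: of the 8 tested, 3 rose, against 11.9% of 15791 genes, and 0 fell, against 10.8%. At an unadjusted p under 0.05 edgeR gave 5 higher and 0 lower, and DESeq2 gave 3 higher and 0 lower at its adjusted threshold. By either tool 0 of the 8 were DE genes, and 0 also at an unadjusted p under 0.05, against 0.671% of all genes. The median log2 fold change was 0.25, beside 0.00 over all genes (-9.7e-04).

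MYL9 in GCN2KO cells had 170, 201, 278, 216 and 171 normalized counts unwounded and 315, 263, 291, 284 and 182 after HDW. The groups overlapped, and the log2 fold change of 0.37 ± 0.15 did not pass (adjusted p = 0.0938). It passed without replicate 3 of the unwounded group (0.49, adjusted p = 0.0364) and without replicate 5 of the HDW group (0.48, adjusted p = 0.0199). TPM4 ranged from 16762 to 18889 unwounded and from 19906 to 23705 after HDW without overlap, a log2 fold change of 0.37 ± 0.07 (adjusted p = 0.00265). CALD1 ranged from 4223 to 5335 unwounded and from 6081 to 6537 after HDW, a log2 fold change of 0.40 ± 0.07 (adjusted p = 0.0024), the opposite of its direction in WT cells. ACTN1 had a log2 fold change of 0.38 ± 0.08 (adjusted p = 0.00758). TPM1 did not pass, at 0.04 ± 0.06 (adjusted p = 0.622), and neither did TPM2 at 0.14 (adjusted p = 0.0958), CNN2 at 0.03 (adjusted p = 0.796) or TAGLN2 at -0.02 (adjusted p = 0.865).

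**Figure D3:**
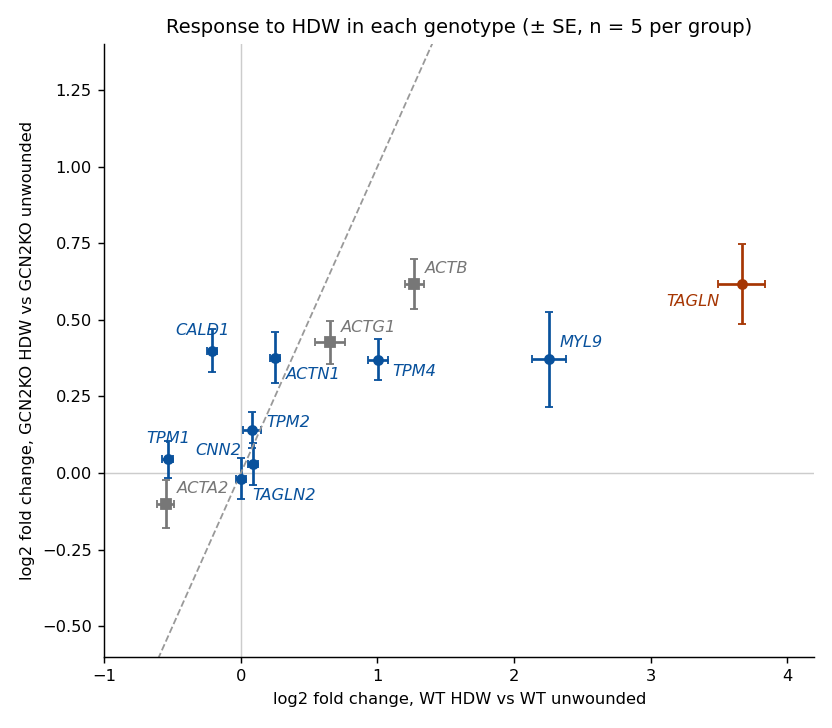
Log2 fold change with HDW in GCN2KO cells (vertical) against that in WT cells (horizontal), with SE, for 9 members (circles) and 3 actins (grey squares); the dashed line marks equal responses, and the axes have different scales. TAGLN (3.67, 0.62), MYL9 (2.26, 0.37) and TPM4 (1.01, 0.37) lie to the right of the line, while CALD1 (-0.21, 0.40) and TPM1 (-0.54, 0.04) lie to the left of it.

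The difference between these responses was tested as an interaction over all 20 libraries. A positive interaction means that the change with HDW was more upward in GCN2KO than in WT cells. Of the 8 members 2 had a positive interaction, against 11.2% of 16536 genes, and 2 a negative one, against 12.5%, while 1 of these was past 1 in size, against 3.31%. MYL9 responded less in GCN2KO than in WT cells by 1.90 ± 0.21 on the log2 scale (interaction -1.90, adjusted p = 6.97e-07), and TPM4 had an interaction of -0.65 ± 0.10 (adjusted p = 6.82e-05). TPM1 (0.57 ± 0.07, adjusted p = 5.61e-06) and CALD1 (0.60 ± 0.08, adjusted p = 6.24e-06) had interactions of the opposite sign, since both fell in WT cells and were flat or higher in GCN2KO cells. The interactions of ACTN1 (0.11 ± 0.09, adjusted p = 0.403), TPM2 (0.05, adjusted p = 0.742), CNN2 (-0.08, adjusted p = 0.514) and TAGLN2 (-0.03, adjusted p = 0.793) did not pass. For TAGLN the value was -3.06 ± 0.23, given without a test. Scaled by library size alone, 62.1% of all interaction calls were positive in place of 47.1%, and the 4 members kept their signs and passed.

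Genotype was then compared at each state; these comparisons share libraries with those above. In unwounded cells GCN2KO had more MYL9 and TPM4 and less TPM1, CALD1, TPM2, ACTN1 and CNN2 than WT. That is 2 of 8 higher, against 33.4% of 15348 genes, and 5 lower, against 33.1%, with a median log2 fold change of -0.32 beside 0.00 over all genes (0.0042). TPM1 was the 1 DE gene, against 16.4% of genes: it had 2692, 2528, 2958, 2696 and 2865 normalized counts in GCN2KO against at least 6958 in WT, a log2 fold change of -1.46 ± 0.07 (adjusted p = 3.99e-11). CALD1 was also lower, at -0.90 ± 0.07 (adjusted p = 1.93e-08), followed by TPM2 at -0.51 ± 0.07 (adjusted p = 4.63e-06) and ACTN1 at -0.47 ± 0.08 (adjusted p = 9.76e-05). MYL9 was higher by 0.64 ± 0.14 (adjusted p = 9.18e-04) and TPM4 by 0.24 ± 0.06 (adjusted p = 0.00308). CNN2 (-0.16 ± 0.07, adjusted p = 0.0492) missed the threshold in 11 of 17 alternatives. TAGLN2 (-0.13 ± 0.07, adjusted p = 0.111) passed in 3 of 17, one of them without replicate 3 of GCN2KO unwounded (-0.18, adjusted p = 0.0125).

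After HDW all 8 members were lower in the GCN2KO libraries, against 35.8% of 15855 genes lower, and 0 were higher, against 35.9% (0 also at an unadjusted p under 0.05 in edgeR and 0 in DESeq2). The median log2 fold change was -0.39, beside 0.00 over all genes (0.002). MYL9 was the 1 DE gene, against 14.9% of genes, at -1.26 ± 0.14 (adjusted p = 1.66e-06), and its sign was opposite to that in unwounded cells. TPM4 also changed sign between the states, to -0.41 ± 0.08 after HDW (adjusted p = 4.01e-04). TPM1 was lower by 0.90 ± 0.04 (log2 fold change -0.90, adjusted p = 3.86e-10). TPM2 (-0.46), ACTN1 (-0.36), CALD1 (-0.30), CNN2 (-0.24) and TAGLN2 (-0.16) followed, with adjusted p from 1.85e-06 to 0.00278. In each of the 8 genes every GCN2KO HDW library lay below every WT HDW library. The share of all genes with no overlap in this comparison was not counted.

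**Figure D4:**
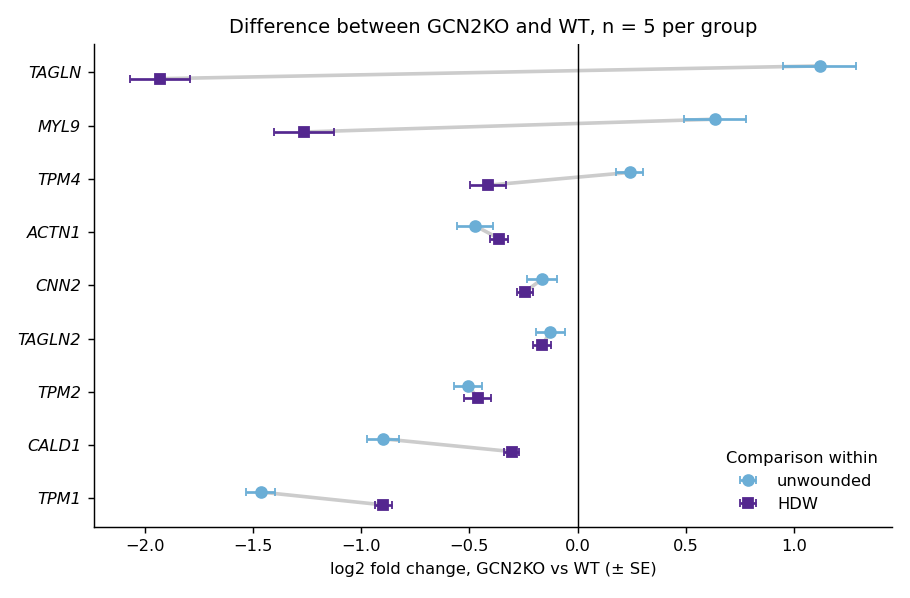
Log2 fold change of GCN2KO over WT with SE in unwounded cells (circles) and after HDW (squares) for 9 members, 5 libraries a group. TAGLN (1.12 to -1.93), MYL9 (0.64 to -1.26) and TPM4 (0.24 to -0.41) cross the zero line, and the other 6 stay below it in both states.

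Family relatives outside the set are TAGLN3, CNN3, the light chains MYL6, MYL6B, MYL12A and MYL12B, TPM3 and the other alpha-actinins; 7 of the 10 were tested. In WT cells 2 rose with HDW, TPM3 (0.39 ± 0.04, adjusted p = 5.46e-07) and the second non-muscle alpha-actinin ACTN4 (0.23 ± 0.03, adjusted p = 1.51e-05), and 1 fell, MYL6B (-0.20 ± 0.04, adjusted p = 0.00155). Of all genes 26.1% rose and 25.2% fell, and without replicate 2 of WT HDW 4 relatives rose. Their median was 0.09. In GCN2KO cells 1 rose and 1 fell, against 11.9% and 10.8% of all genes, with a median of -0.13. After HDW, GCN2KO cells had more CNN3 (0.24, adjusted p = 0.0126) and less MYL6B (-0.88, adjusted p = 2.44e-08), ACTN4 (-0.37, adjusted p = 9.42e-07) and MYL12A (-0.19, adjusted p = 0.00476) than WT cells, so 1 was higher and 3 lower against 35.9% and 35.8% of all genes. In the interaction TPM3 passed (-0.42, adjusted p = 5.12e-04), 0 of 7 were higher (0 at an unadjusted p under 0.05 and 0 in DESeq2), and 1 was lower, against 11.2% and 12.5% of all genes. TPM3 thus differed between genotypes with the sign of TPM4, not of TPM1.

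Regulators of actomyosin included myosin heavy chains, exchange factors, kinases, phosphatase subunits and the SRF factors, 40 genes of which 37 were tested. In WT cells 17 rose with HDW and 3 fell, against 26.1% and 25.2% of all genes, with a median of 0.10. A fit of all 20 libraries gave 10 that rose, and scaling by library size alone gave 6 that fell. The highest were ARHGEF2, the microtubule-bound exchange factor GEF-H1 (0.97 ± 0.10, adjusted p = 7.30e-07), and MYH9, the heavy chain of non-muscle myosin IIA (0.42 ± 0.04, adjusted p = 1.07e-07). The lowest were MYLK, the kinase of the myosin light chain (-0.68 ± 0.06, adjusted p = 1.81e-07), and LIMK2, a cofilin kinase (-0.34 ± 0.03, adjusted p = 2.83e-07). In GCN2KO cells 9 rose and 1 fell, against 11.9% and 10.8% of all genes, with a median of 0.19, and leaving out 1 library at a time gave 3 to 17 that rose. After HDW 14 were higher and 16 lower in GCN2KO than in WT cells, against 35.9% and 35.8% of all genes, so the higher count lay near the share of all genes. The list was led by the kinase DAPK3 (0.88) and RND3 (0.79) above and by the heavy chain MYH14 (-1.86) and the exchange factor ARHGEF1 (-0.96) below. ARHGEF2 (interaction -0.85, adjusted p = 5.27e-05) and MYLK (interaction 0.72, adjusted p = 2.18e-04) responded differently in the genotypes. In the interaction 7 of the 37 were higher, or 5 to 13 leaving out 1 library at a time (13 without replicate 2 of GCN2KO unwounded), and 4 were lower, against 11.2% and 12.5% of all genes.

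The factors that act on CArG boxes changed little in WT cells. SRF rose by 0.16 ± 0.04 with HDW in WT (adjusted p = 0.00438, but 0.0709 in a fit of all 20 libraries) and had 0.32 ± 0.09 in GCN2KO cells (adjusted p = 0.0241, from 0.0527 to 0.0619 without 1 of 6 libraries in turn). MRTFA (-0.04, adjusted p = 0.408) and MRTFB (-0.07, adjusted p = 0.100) did not pass in WT. With HDW in GCN2KO cells MRTFA (0.23, adjusted p = 0.0538) and MRTFB (0.30, adjusted p = 0.0816) were higher but did not pass either. Both passed there in the fit of all 20 libraries (MRTFA 0.22, adjusted p = 0.0112; MRTFB 0.30, adjusted p = 0.0161). GCN2KO cells had less SRF and MRTFA transcript than WT cells, with log2 fold changes of -0.64 (adjusted p = 7.21e-06) and -0.61 (adjusted p = 2.73e-06) unwounded and of -0.50 (adjusted p = 3.74e-07) and -0.35 (adjusted p = 3.48e-05) after HDW. MRTFB did not pass in unwounded cells (-0.11, adjusted p = 0.428) and was higher in GCN2KO than in WT after HDW (0.25, adjusted p = 4.43e-05), with no overlap between the libraries. MYOCD, the smooth muscle coactivator of SRF, had no count in any library.

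Known targets of MRTF and SRF outside the set, 31 genes with 26 tested, held actins, focal adhesion and LIM proteins and matrix genes. In WT cells 16 rose with HDW and 6 fell, 7 of the 22 as DE genes, with a median of 0.32. The shares over all genes were 26.1% higher, 25.2% lower and 4.17% DE genes, so the number that fell lay near that of all genes. In GCN2KO cells 13 rose and 0 fell, against 11.9% and 10.8% of all genes (1 lower at an unadjusted p under 0.05, 0 in DESeq2), with a median of 0.22, and leaving out 1 library at a time gave 8 to 15 that rose. The highest in WT were CCN2, the matricellular growth factor CTGF (1.38 ± 0.19, adjusted p = 2.01e-05), and FLNC, a filamin (1.32 ± 0.10, adjusted p = 3.23e-08). The lowest were SYNPO2, an actin-bundling protein of muscle (-1.25 ± 0.14, adjusted p = 2.30e-06), and ACTA2, smooth muscle alpha-actin (-0.55 ± 0.06, adjusted p = 3.77e-06). ACTA2, another gene used to mark smooth muscle, thus fell where TAGLN was highest: its means were 483 and 331 in WT and 668 and 617 in GCN2KO cells.

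The cytoplasmic actins rose in both genotypes. ACTB had means of 40848 and 98619 in WT (log2 fold change 1.27 ± 0.07, adjusted p = 1.52e-09) and 33455 and 50983 in GCN2KO cells (0.62 ± 0.08, adjusted p = 4.23e-04), with an interaction of -0.66 (adjusted p = 1.27e-04). ACTG1 rose by 0.65 (adjusted p = 1.09e-04) and 0.43 (adjusted p = 0.00164), and its interaction did not pass (-0.24, adjusted p = 0.215; without replicate 2 of WT HDW -0.33, adjusted p = 0.0406). CCN2 rose by 1.46 in GCN2KO cells too (adjusted p = 7.45e-04), and its interaction of 0.08 ± 0.34 did not pass (adjusted p = 0.900). After HDW, 9 of the 26 targets were higher in GCN2KO than in WT cells and 9 lower, near the 35.9% and 35.8% of all genes. At the ends were CCN2 (1.70) and the smooth muscle gene SMTN (0.91), and TGFB1I1, a focal adhesion adaptor (-2.18), and ACTB (-0.95). In the interaction 7 of the 26 were higher and 9 lower, against 11.2% and 12.5% of all genes.

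**Figure D5:**
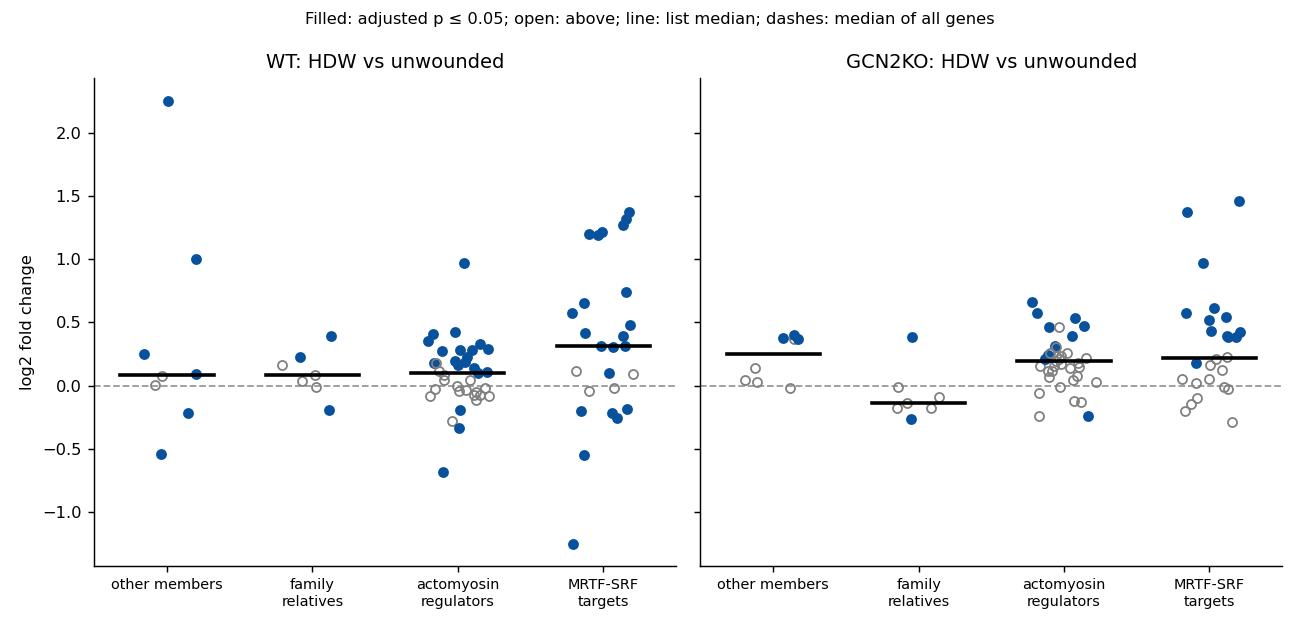
Log2 fold changes with HDW in WT (left) and GCN2KO cells (right) for the 8 tested members, 7 family relatives, 37 actomyosin regulators and 26 MRTF-SRF targets; filled points passed the test, lines are list medians and the dashed line is the median of all genes. Medians in WT were 0.08, 0.09, 0.10 and 0.32, and points of the targets lie on both sides of 0.

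The genes whose 4 group means lay closest to those of TAGLN were ranked by the root mean square difference of mean log2 values (normalized count plus 2), each centred over the 4 groups, among 16535 genes. The closest was ADAM8, a membrane metalloprotease, at 0.207, with means of 66.0 and 628 in WT and 97.2 and 153 in GCN2KO cells. NFATC2 (0.359), TMEM158 (0.424), BMP6 (0.437), the pseudogene MYH16 (0.438) and IL13RA2 (0.441) followed, with group means of 0.915 to 43.8 normalized counts. MYL9 ranked 10 at 0.489, TPM4 ranked 171 at 0.935, and TPM1 ranked 14495 at 1.52. This is a likeness over 4 group means. It uses the TAGLN values by which the set was chosen, so it is a description and no test of whether members follow TAGLN. NFATC2, TMEM158, BMP6, MYH16 and IL13RA2 were below the filter on low counts in the comparison of unwounded cells.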

How the data were processed

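RNA of 20 cultures was sequenced, 5 replicates a group by the labels. The authors trimmed reads with Trimmomatic, aligned them to GRCh38 with STAR, counted them per gene with featureCounts and tested them with DESeq2; the deposited files hold raw counts per Ensembl gene, 1 library each. Annotation release and strand setting are not given in the sources used here. Symbols, coordinates and transcript lengths came from GENCODE 44, and all 10 members matched 1 gene each. Counts were fitted pairwise in edgeR 4.0.16 (TMM, filterByExpr with a minimum count of 10, quasi-likelihood test, Benjamini-Hochberg over all genes), after testing on simulated data. DESeq2 1.42.0, other scalings, filters and a replicate block were alternatives. Genes that are no members were named by rule: SRF, MRTFA, MRTFB, 3 actins, the 5 profiles closest to TAGLN and the 5 closest protein-coding ones, and the 2 highest and 2 lowest passing genes of each list. Markers, genes that overlap TAGLN, MYL12A and MYL12B were added outside this rule after their values were seen. The members and lists were chosen with earlier results of these data known. Nothing in the sources says that replicates came from separate platings, so p-values measure the spread between these cultures.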

Additional observations from a re-analysis of the deposited data

Results flagged for a closer look

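By the interaction test, 4 of the 8 tested members changed by different amounts with HDW in WT and GCN2KO cells: MYL9 (-1.90, adjusted p = 6.97e-07), TPM4 (-0.65, adjusted p = 6.82e-05), TPM1 (0.57, adjusted p = 5.61e-06) and CALD1 (0.60, adjusted p = 6.24e-06), as log2 response in GCN2KO minus that in WT cells. Thus 2 of the 8 were positive, against 11.2% of 16536 genes, and 2 were negative, against 12.5%. Among the other named genes the interaction was negative for ARHGEF2 (-0.85), FLNC (-0.79), ACTB (-0.66), TGFB1I1 (-0.46) and TPM3 (-0.42), with adjusted p from 5.27e-05 to 0.031. It was positive for SYNPO2 (0.95), SMTN (0.76), MYLK (0.72), ACTA2 (0.44), MRTFB (0.36), LIMK2 (0.35) and MRTFA (0.26), with adjusted p from 2.18e-04 to 0.0455. The values for MRTFA and MRTFB missed the threshold in most fits that left out 1 library.

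One library stood far from the other 4 of its group in 8 of 132 groups of gene values, and chance alone sets apart about 1 in 20. TAGLN2 accounts for 3 of these: 11881 normalized counts in WT unwounded replicate 1 (others 12683 to 12934), 13292 in GCN2KO unwounded replicate 3 (others 10914 to 11223) and 10607 in GCN2KO HDW replicate 5 (others 11353 to 11514). In GCN2KO HDW replicate 5, CNN3 was low at 1694 (others 2201 to 2370) and MYLK high at 629.8 (others 452 to 482). RND3 was low at 2560 in WT HDW replicate 2 (others 2764 to 2828), SYNPO2 low at 23.1 in WT HDW replicate 4 (others 33.4 to 35.9) and TGFB1I1 high at 877 in WT unwounded replicate 1 (others 635 to 699.6).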

How the results depend on the processing

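The numbers of tested members that rose or fell stayed within 1.5 times the reported ones in every alternative, and 712 of 752 refitted values for the 8 tested members kept their direction and side of the threshold. Members that were DE genes with HDW in WT went from 2 to 1 with library size alone, a mean of at least 50 counts or the replicate block, and ranged from 1 to 2 leaving out 1 library, since TPM4 lies next to the size threshold. Values near 0 changed sign: TAGLN2 with HDW in WT, 0.002 here, was -0.037 with library size alone, -0.0053 with a mean of at least 50 counts and -0.021 to 0.023 leaving out 1 library, and its interaction was 0.033 with library size alone and -0.057 to 0.027. Leaving out 1 library, TAGLN2 with HDW in GCN2KO ranged from -0.041 to 0.027, CNN2 there from -0.023 to 0.063, and the TPM2 interaction from -0.0079 to 0.076. Why these moved was not tested.

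All DE genes numbered 998 without a filter and 371 with a mean of at least 50 counts (640 reported) with HDW in WT, 199 and 40 (106) with HDW in GCN2KO, 3920 and 1630 (2521) for genotype unwounded, 3681 and 1328 (2368) for genotype after HDW, and 280 with the mean filter (547) for the interaction, fewer or more genes being tested. With HDW in WT, regulators that rose numbered 10 in the fit of all 20 libraries and those that fell 6 with library size alone. With HDW in GCN2KO, the fit of all 20 libraries gave 2840 genes lower, 16 regulators higher and 1 target lower. Without a filter 2 relatives were higher for genotype after HDW and 2 lower in the interaction.

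Same-numbered libraries of different groups did not deviate together: the mean correlation was 0.0056 for HDW in WT (-0.093 to 0.12) and -0.096 for HDW in GCN2KO, and 0 to 3 of 10 libraries per comparison correlated best with their own number. Fitted with a replicate block, HDW in GCN2KO gave 1239 genes higher and 882 lower, with 5 regulators higher and 0 lower; the numbers are not shown to pair samples.

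Leaving out 1 library, HDW in GCN2KO gave 1183 to 2332 genes higher and 887 to 2185 lower, 3 to 17 regulators higher and 0 to 1 lower, 0 to 1 relatives lower and 8 to 15 targets higher. Relatives that rose with HDW in WT numbered 2 to 4 (4 without replicate 2 of WT HDW), and in the interaction 1 to 2 relatives were lower and 5 to 13 regulators higher (13 without replicate 2 of GCN2KO unwounded). Of the 5 profiles closest to TAGLN, 3 were shared with a pseudocount of 0.5, 2 with 5, 5 with DESeq2 size factors and 4 with library size alone, ADAM8 ranking 1 and MYL9 6 to 11 in each.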

Other observations

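The ratio of TPM4 to TPM1 read counts within each library, chosen after the values were seen and given without a test, was 1.94 ± 0.04 (SD, n = 5) before HDW and 5.67 ± 0.89 after it in WT cells, and 6.32 ± 0.22 before and 7.91 ± 0.38 after it in GCN2KO cells. It uses no scaling between libraries, so it does not depend on the normalization. The WT HDW libraries (4.399 to 6.61) overlapped the GCN2KO unwounded libraries (6.08 to 6.67) and not the WT unwounded ones (1.886 to 1.996). The ratio of TPM4 to CALD1 moved in the same way in WT cells, from 1.63 ± 0.04 to 3.80 ± 0.49, and stood at 3.63 ± 0.46 and 3.52 ± 0.16 in GCN2KO cells without and with HDW.

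TAGLN amounted to 0.493% ± 0.13 of the TAGLN2 read count before and 6.04% ± 1.3 after HDW in WT cells, against 1.13% ± 0.14 and 1.76% ± 0.23 in GCN2KO cells. All 10 members together took 0.247% ± 0.0046 of the counts before and 0.295% ± 0.012 after HDW in WT cells, and 0.198% ± 0.0060 and 0.233% ± 0.0069 in GCN2KO cells.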
